A study of Mus musculus with 6 samples.

Results

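The genes described here are 10 of the 50383 gene IDs in the deposited tables. They were chosen by symbol: Cldn5, Pecam1, Flt1, Ly6a, Ly6c1, Slco1a4, Mfsd2a and Cdh5 as genes of brain endothelium and its barrier, and Icam1 and Vcam1 as adhesion genes. No measured value enters that rule, and all 10 were above 0 FPKM in every library. FPKM is a level, counted in sequenced fragments and corrected for transcript length and for the depth of the library, so levels of different genes can be set beside each other. All 10 are annotated as protein-coding, and their coordinates are given in mm10.

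Brain capillaries are lined by endothelial cells that seal the blood from the tissue. Tight junction proteins close the gaps between the cells, transporters carry selected molecules across them, and vesicle traffic through them is kept low. When endothelium meets inflammatory cytokines, it places the adhesion proteins Icam1 and Vcam1 on its surface, where integrins of white blood cells bind them. Neither adhesion protein belongs to endothelium alone, since Icam1 is also made by microglia and leukocytes and Vcam1 also by other brain cells.

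RNA came from the lateral amygdala, where fear memories are formed and kept, of 129xC57BL/6 hybrid males aged 2 to 3 months. The study asked about fear memory after knockdown of BAF53b, a neuronal subunit of a chromatin remodelling complex encoded by Actl6b. There were 3 groups of 2 libraries: control, scrambled siRNA and Baf53b siRNA. An siRNA is a short double-stranded RNA that lowers a matching messenger RNA, and a scrambled one has its bases in shuffled order. The Baf53b siRNA was injected 1 day after training. What was given to control mice is not in the labels, nor when the scrambled siRNA was injected or whether the 4 mice named in the tissue protocol were pooled. The p-values below therefore measure the spread between libraries, which may be technical. All groups share strain, sex and age range, and no transgene is named.

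The depth behind each library, estimated from the deposited confidence intervals, was between 6.43 and 10.7 M fragments. Mitochondrial genes took between 15.0% and 29.5% of the FPKM sum. Actl6b was not detectably lower in the libraries labelled Baf53b siRNA than in scrambled siRNA (42.8 and 39.6 FPKM beside 43.8 and 43.9; log2 difference -0.09, 95% interval -0.38 to 0.21, limma adjusted p = 1), so directions are given for libraries by their label. The summed FPKM of 5 neuron markers was between 1526 and 1779, and that of the 8 barrier genes between 72.6 and 107. These sums depend on the genes chosen and do not measure shares of cells. Among 14663 genes tested with limma, 18 (0.123%) were higher in libraries labelled Baf53b siRNA than in scrambled siRNA, 181 (1.23%) were higher than in control, and 0 differed between scrambled siRNA and control, where 298 genes were higher and 27 lower at an unadjusted p under 0.05. No gene was called lower in these fits, but up to 7 were with a library left out and up to 5 with small RNA types kept. The comparisons share libraries, so their values are given side by side and are not independent of each other.

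Icam1, the receptor for the integrins of the Itgb2 family, rose in the libraries labelled Baf53b siRNA relative to control, and it was the 1 of the 10 genes to pass the test in any comparison. Its mean level was the lowest of the set. The gene (ENSMUSG00000037405.8) lies on chromosome 9 from 21015985 to 21028817, plus strand. It stood at 0.580 and 0.258 FPKM in controls, 1.31 and 1.01 with scrambled siRNA, and 2.28 and 1.96 FPKM in libraries labelled Baf53b siRNA. The groups did not overlap: both scrambled siRNA libraries lay above both controls and below both libraries labelled Baf53b siRNA.

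Group means of Icam1 were 0.419 ± 0.228, 1.16 ± 0.213 and 2.12 ± 0.229 FPKM (SD, n = 2 each), so the level with Baf53b siRNA was 5.06 times that of control and 1.83 times that of scrambled siRNA. On the log2(FPKM + 1) scale, which understates changes of genes this low, the difference from control was 1.14 (SE 0.19, 95% interval 0.69 to 1.60, limma adjusted p = 0.0468). Against scrambled siRNA it was 0.53 (SE 0.19, limma adjusted p = 1), and scrambled siRNA exceeded control by 0.61 (SE 0.19, limma adjusted p = 1). The intermediate level in scrambled siRNA was thus not separated from either neighbour once all genes were adjusted for, although the unadjusted p-values were 0.0272 and 0.0155.

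The Icam1 call rests on few fragments and sits near the threshold. About 14.8 and 29.3 fragments stood behind the control values and 94.7 and 97.9 behind those with Baf53b siRNA. The gene passed the filter on low values through the group in which it was high, since its mean over the other 4 libraries was 0.789 FPKM. The call was lost in 11 of 13 alternative settings, including all 6 settings that dropped 1 library, with adjusted p-values from 0.0431 to 0.329; the difference stayed positive in all 13, between 0.91 and 2.17.

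Because Icam1 is a textbook target of the cytokine-driven factor NF-kB, the 250 bases before its RefSeq start are shown, beside those of the junction gene Cldn5, whose groups overlapped. Both are from RefSeq (GRCm38.p6), 5′ to 3′ on the plus strand, at chr9:21015690-21015939 and chr16:18776597-18776846. The RefSeq start of Icam1 lies upstream of the start in the deposited table, and positions below count back from the RefSeq start. Capitals mark matches to the motifs described after them.
Icam1: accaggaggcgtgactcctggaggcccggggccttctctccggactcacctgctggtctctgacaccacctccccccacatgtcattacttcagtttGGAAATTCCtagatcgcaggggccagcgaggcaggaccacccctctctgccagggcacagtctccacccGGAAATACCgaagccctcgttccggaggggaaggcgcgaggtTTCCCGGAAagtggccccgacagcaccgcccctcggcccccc
Cldn5: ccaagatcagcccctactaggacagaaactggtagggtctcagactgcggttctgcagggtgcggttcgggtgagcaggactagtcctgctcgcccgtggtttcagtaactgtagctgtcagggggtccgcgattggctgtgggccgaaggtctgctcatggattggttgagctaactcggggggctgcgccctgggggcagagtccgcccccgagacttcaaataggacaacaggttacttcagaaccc

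The search used 3 motifs on both strands: GGNNNTTCC (NF-kB type), TTCNNNGAA (GAS type) and TATAAA. The Icam1 window held GGAAATTCC from -153 to -145, which reads as the NF-kB type on either strand, GGAAATACC from -84 to -76, which does so on the minus strand, and TTCCCGGAA from -42 to -34, which matches the GAS type. These matches did not overlap one another. The Cldn5 window held none of the 3. Of the other genes with an entry, Ly6c1 has 2 annotated starts, and its windows held GGAAGAGCC of the NF-kB type (-81 to -73, minus strand) and, in the other, TATAAA. Flt1 held TATAAA, and Slco1a4 and Mfsd2a held no match. Among 32851 promoter windows of this length, 15.7% held the NF-kB type, 7.02% the GAS type and 12.4% TATAAA. A match is a run of letters and not a measured binding site. RefSeq entries were matched for 6 of the 10 genes. Pecam1, Ly6a, Cdh5 and Vcam1 had none.

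Vcam1, the receptor for the integrin of Itga4 and Itgb1, was the other adhesion gene (ENSMUSG00000027962.14, chromosome 3, 116109949 to 116129688, minus strand). Control libraries had 9.85 and 10.6 FPKM, scrambled siRNA libraries 11.6 and 11.7 FPKM, and those labelled Baf53b siRNA 15.6 and 15.6 FPKM. Its replicates lay close together, and its groups kept the same order as for Icam1, again without overlap. With group means of 10.2 ± 0.557, 11.6 ± 0.110 and 15.6 ± 0.00969 FPKM (SD, n = 2 each), Vcam1 with Baf53b siRNA stood at 1.52 times control and 1.34 times scrambled siRNA. It did not pass the test: the difference from control was 0.56 (SE 0.13, 95% interval 0.26 to 0.87, limma adjusted p = 0.169), and that from scrambled siRNA was 0.39 (SE 0.13, limma adjusted p = 1; unadjusted 0.0187). Between 351 and 753 fragments stood behind each Vcam1 value.

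**Figure D1:**
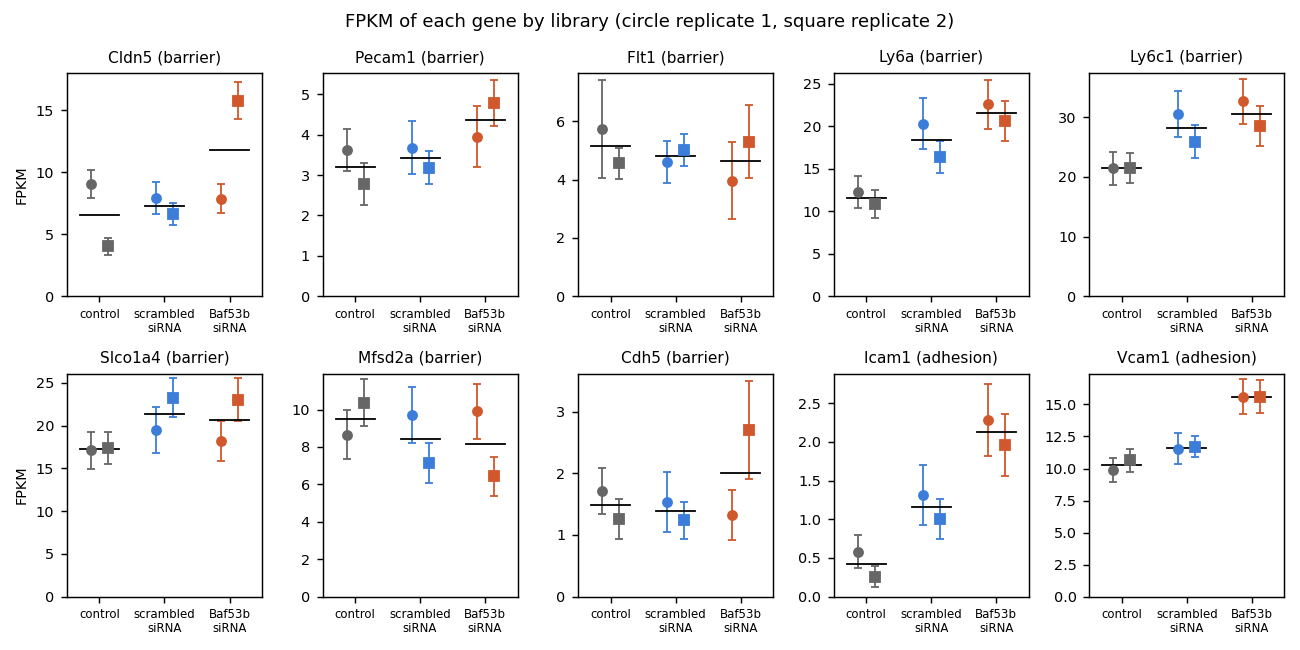
FPKM of the 10 genes in each library, 1 panel per gene with its own linear axis from 0; points are libraries, vertical bars the confidence bounds deposited by the authors and horizontal lines the group means. Icam1 and Vcam1 stand without overlap in the order from control through scrambled siRNA to Baf53b siRNA, while the 2 libraries of a group lie far apart for Cldn5 in control (9.06 and 4.02 FPKM) and in Baf53b siRNA (7.86 and 15.8 FPKM).

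Among the junction genes no difference passed, and Cldn5 had the widest gap between replicates of the 10 genes in control and in Baf53b siRNA. Cldn5, the main claudin of brain tight junctions (ENSMUSG00000041378.1, chromosome 16, 18776847 to 18778260, plus strand), was at 9.06 and 4.02 FPKM in controls, 7.92 and 6.60 with scrambled siRNA, and 7.86 and 15.8 FPKM with Baf53b siRNA. Replicate 1 was nearly level over the groups, and the spread came from replicate 2, which was the lowest of all libraries in control and the highest in Baf53b siRNA. The mean of 11.8 ± 5.59 FPKM (SD, n = 2) with Baf53b siRNA was 1.81 times the control mean of 6.54 ± 3.57 FPKM (SD, n = 2). This ratio is close to that of Ly6a, but the log2 difference of 0.78 had an SE of 0.39 and an interval from -0.15 to 1.70 (limma adjusted p = 1). Against scrambled siRNA the Cldn5 difference was 0.57 (95% interval -0.36 to 1.49, limma adjusted p = 1). These values hung on single libraries. Against control the difference was 1.28 or 0.28 without control replicate 1 or 2, and 1.24 or 0.32 without Baf53b siRNA replicate 1 or 2. Against scrambled siRNA it was 1.03 or 0.10 without Baf53b siRNA replicate 1 or 2. Between 137 and 440 fragments stood behind each Cldn5 value, and the deposited intervals of both libraries did not meet in control or in Baf53b siRNA.

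Cdh5, the cadherin of endothelial adherens junctions (ENSMUSG00000031871.9, chromosome 8, 104101625 to 104144511, plus strand), shared the high value in Baf53b siRNA replicate 2. It stood at 1.72 and 1.26 FPKM in controls, 1.53 and 1.24 with scrambled siRNA, and 1.32 and 2.70 FPKM with Baf53b siRNA. A single library thus lay above the rest, and the groups overlapped. The differences were 0.24 (95% interval -0.35 to 0.84) from control and 0.30 (-0.29 to 0.90) from scrambled siRNA, with limma adjusted p = 1 for both, and both turned negative without that library (-0.0918 and -0.0337).

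Pecam1, an adhesion protein at the contacts between endothelial cells (ENSMUSG00000020717.19, chromosome 11, 106654217 to 106750628, minus strand), did not pass the test in any comparison. Its levels were 3.63 and 2.78 FPKM in controls, 3.68 and 3.18 with scrambled siRNA, and 3.94 and 4.79 FPKM with Baf53b siRNA. Both libraries labelled Baf53b siRNA lay above the other 4. The difference from control was 0.36 (SE 0.18, 95% interval -0.07 to 0.78) and from scrambled siRNA 0.28 (SE 0.18, -0.15 to 0.70), with limma adjusted p = 1 for both.

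The transporter genes had differences near 0 against scrambled siRNA. Slco1a4, an organic anion transporter of brain capillaries (ENSMUSG00000030237.14, chromosome 6, 141805440 to 141856199, minus strand), was at 17.1 and 17.4 FPKM in controls, 19.5 and 23.3 with scrambled siRNA, and 18.2 and 23.0 FPKM with Baf53b siRNA. Both siRNA groups lay above control and overlapped each other. Its difference was -0.05 between Baf53b siRNA and scrambled siRNA (95% interval -0.44 to 0.33), 0.24 from control (-0.15 to 0.62) and 0.29 between scrambled siRNA and control (-0.10 to 0.68), each with limma adjusted p = 1.

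Mfsd2a, a lipid transporter that also holds back vesicle traffic across the barrier (ENSMUSG00000028655.11, chromosome 4, 122946850 to 122961188, minus strand), was 1 of the 2 genes with a lower mean in Baf53b siRNA than in both other groups. The libraries read 8.66 and 10.4 FPKM in controls, 9.71 and 7.16 with scrambled siRNA, and 9.90 and 6.44 FPKM with Baf53b siRNA. The groups overlapped in part, and replicate 2 was low in both siRNA groups but high in control. Control replicate 2 was the highest library and Baf53b siRNA replicate 2 the lowest. The difference from control was -0.22 (SE 0.23, 95% interval -0.77 to 0.33) and from scrambled siRNA -0.05 (-0.60 to 0.49), with limma adjusted p = 1 for both.

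Flt1, a receptor for vascular endothelial growth factor (ENSMUSG00000029648.13, chromosome 5, 147561604 to 147726011, minus strand), was the other. Its values were 5.74 and 4.56 FPKM in controls, 4.62 and 5.01 with scrambled siRNA, and 3.96 and 5.30 FPKM with Baf53b siRNA, with overlap between all groups. The difference from control was -0.13 (SE 0.18, 95% interval -0.57 to 0.30, limma adjusted p = 1). Its intervals leave room for a fall or a rise of about that size, so these data neither show nor limit a small change.

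Ly6a and Ly6c1, small surface proteins abundant on mouse brain endothelium and also found on leukocytes, were the barrier-group genes with the smallest p-values against control, and their higher levels appeared already in scrambled siRNA. Ly6a (ENSMUSG00000075602.10, chromosome 15, 74994877 to 74998031, minus strand) was at 12.3 and 10.8 FPKM in controls, 20.3 and 16.4 with scrambled siRNA, and 22.6 and 20.6 FPKM with Baf53b siRNA. No groups overlapped. The mean with Baf53b siRNA was 1.87 times control, and that with scrambled siRNA 1.59 times control. The differences from control were 0.85 (SE 0.16, 95% interval 0.48 to 1.22, limma adjusted p = 0.0720) for Baf53b siRNA and 0.62 (SE 0.16, 95% interval 0.25 to 0.99, limma adjusted p = 1; unadjusted 0.00560) for scrambled siRNA. Ly6a just missed the threshold as deposited and passed it with quantile normalization (difference 0.79, limma adjusted p = 0.0413) and with FPKM rescaled without mitochondrial genes (0.77, limma adjusted p = 0.0397).

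Ly6c1 (ENSMUSG00000079018.10, chromosome 15, 75044018 to 75048830, minus strand) had 21.4 and 21.4 FPKM in controls, 30.5 and 25.9 with scrambled siRNA, and 32.7 and 28.5 FPKM with Baf53b siRNA. Both siRNA groups lay above control and overlapped each other. Its differences from control were 0.49 (SE 0.14, 95% interval 0.15 to 0.83, limma adjusted p = 0.388) and 0.38 (SE 0.14, 95% interval 0.03 to 0.72, limma adjusted p = 1), and between the siRNA groups it differed by 0.11 (-0.23 to 0.46). The split of reads among these genes is uncertain. Of the 50-base windows of annotated Ly6c1 transcripts 32.8% also occur in other genes, 21.5% in Ly6c2, and for Ly6a the share is 19.0%, 15.0% in Ly6c1. Ly6c2, the near copy of Ly6c1 that marks inflammatory monocytes, stood at 2.80 and 2.39, 4.81 and 3.91, and 6.51 and 4.54 FPKM over the groups in the same order (difference from control with Baf53b siRNA 0.84, limma adjusted p = 0.188). For the other 8 genes the shared part was 2.27% or less. Cdh5, Icam1 and Vcam1 each overlap an annotated gene on the opposite strand, and whether counting used the strand is not given in the sources used here.

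**Figure D2:**
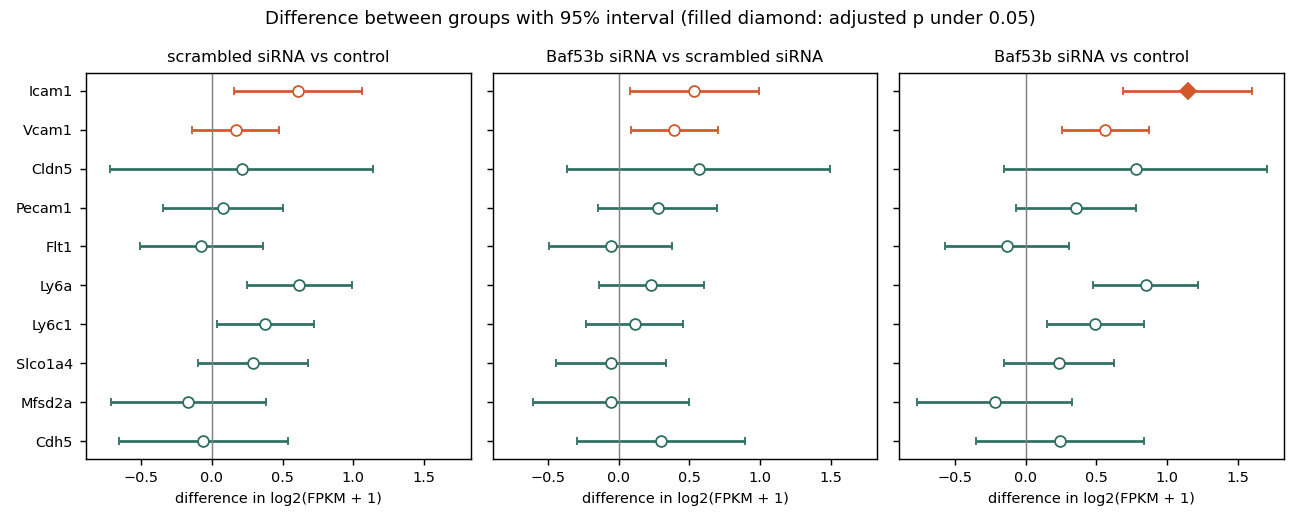
Differences in log2(FPKM + 1) between groups with 95% intervals of the limma fit, 1 panel per comparison, with adhesion genes in orange and barrier genes in green. The interval of Icam1 against control (0.69 to 1.60) carries the 1 filled mark, and the widest intervals belong to Cldn5.

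Counted over the set, no barrier gene and 1 of 2 adhesion genes passed the test against control, where 1.23% of all genes tested did. That gene, Icam1, passed the filter on low values through its level with Baf53b siRNA, and its call was lost in 11 of 13 alternative settings. Both libraries with Baf53b siRNA lay above both controls for both adhesion genes and for 4 of 8 barrier genes (Pecam1, Ly6a, Ly6c1 and Slco1a4), beside 16.7% of all genes tested. Against scrambled siRNA this held for both adhesion genes and 2 of 8 barrier genes (Pecam1 and Ly6a), beside 13.1% of all genes. For scrambled siRNA against control it held for both adhesion genes and 3 of 8 barrier genes (Ly6a, Ly6c1 and Slco1a4), beside 12.7%. No member lay wholly below in any comparison, where 7.11%, 9% and 5.57% of all genes did. At an unadjusted p under 0.05, 4 of the 10 genes were higher against control (Icam1, Vcam1, Ly6a and Ly6c1; 4.75% of all genes were higher and 0.273% lower), 2 against scrambled siRNA (Icam1 and Vcam1; 2.67% and 0.361%) and 3 in scrambled siRNA against control (Icam1, Ly6a and Ly6c1; 2.03% and 0.184%), and none was lower. The median difference of the barrier genes was 0.30, 0.17 and 0.15 against control, against scrambled siRNA and between scrambled siRNA and control, and that of all genes tested was 0.04, 0.00 and 0.04. For Icam1 and Vcam1 it was 0.85, 0.46 and 0.39. With 2 libraries a group the smallest p that exact permutation allows is 0.333.

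The contrast between the gene groups was taken within each library, as the mean log2(FPKM + 1) of Icam1 and Vcam1 minus the mean of the 8 barrier genes. It was -1.13 and -1.02 in controls, -0.87 and -0.82 with scrambled siRNA, and -0.41 and -0.68 with Baf53b siRNA. The 3 groups did not overlap, and the adhesion genes lay closest to the barrier genes in the libraries labelled Baf53b siRNA. The contrast differed by 0.53 between Baf53b siRNA and control, 0.30 between Baf53b siRNA and scrambled siRNA and 0.23 between scrambled siRNA and control, where the pooled SD of replicates was 0.12. Icam1, the gene with the lowest mean level, weighed more in it than Vcam1. In these comparisons Icam1 differed by 1.14, 0.53 and 0.61, and Vcam1 by 0.56, 0.39 and 0.17. The barrier genes Ly6a and Cldn5 differed from control by 0.85 and 0.78 with Baf53b siRNA, more than Vcam1. These are descriptions of a chosen set and carry no test. Without Baf53b siRNA replicate 1 the difference from scrambled siRNA was 0.16 and without replicate 2 it was 0.44, and a pseudocount of 0.1 in place of 1 raised the difference from control to 1.02. All 3 differences were positive under every alternative run.

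Set against Pecam1 in the same library, Icam1 went from 0.160 and 0.0929 in control to 0.356 and 0.317 in scrambled siRNA and 0.579 and 0.409 with Baf53b siRNA. The ratio of Vcam1 to Pecam1 did not separate the groups (2.72 and 3.83, 3.14 and 3.69, and 3.96 and 3.26). Pecam1 was itself higher in the libraries labelled Baf53b siRNA (3.94 and 4.79 FPKM) than in any other (2.78 to 3.68 FPKM). These ratios therefore reflect changes of Pecam1 as well. In bulk tissue a gene's level depends on how many cells express it as well as on the RNA per cell, and these cannot be told apart here.

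**Figure D3:**
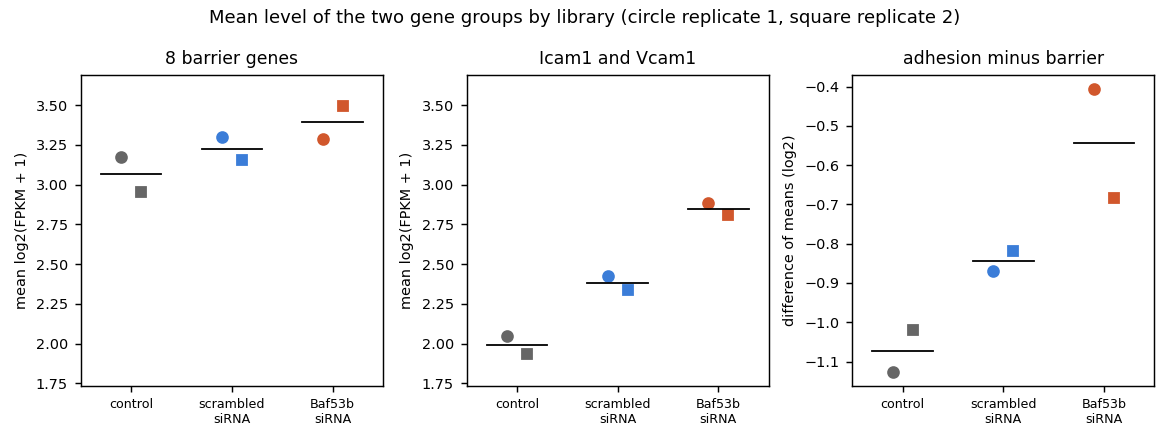
Mean log2(FPKM + 1) of the 8 barrier genes, of Icam1 and Vcam1, and the difference of these means in each library; points are libraries and lines group means, and the axes do not start at 0. The difference runs from -1.13 and -1.02 in control to -0.41 and -0.68 in Baf53b siRNA.

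By mean FPKM over the 6 libraries the genes stood in the order Ly6c1 (26.7), Slco1a4 (19.8), Ly6a (17.2), Vcam1 (12.5), Mfsd2a (8.70), Cldn5 (8.54), Flt1 (4.87), Pecam1 (3.66), Cdh5 (1.63) and Icam1 (1.23). The ranges of neighbours in this order overlapped for every step but that from Pecam1 to Cdh5. Within a library, however, the first gene of a pair was higher in all 6 libraries for Ly6c1 over Slco1a4, Ly6a over Vcam1, Vcam1 over Mfsd2a, Flt1 over Pecam1 and Pecam1 over Cdh5. Slco1a4 against Ly6a and Mfsd2a against Cldn5 changed places in 2 of the 6 libraries. Across libraries the highest value was 8.86 times the lowest for Icam1, 3.92 times for Cldn5 and 1.36 times for Slco1a4, the extremes and the steadiest of the set.

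Other genes of barrier endothelium were read from lists of the same pathways, and none of their members passed the test in any comparison. Against control these lists covered 13 tested tight and adherens junction genes (median difference 0.07), 12 barrier transporters (0.16), 12 genes of the Wnt signal to barrier endothelium (0.02), 10 genes of VEGF and angiopoietin signalling (0.11) and 12 other endothelial identity genes (0.20), beside 0.04 for all genes. The junction, Wnt and VEGF medians were negative under at least 1 of 2 other scalings, quantile normalization and FPKM without mitochondrial genes. The median of all genes was itself negative under these scalings (-0.035 and -0.033). Junction medians (0.013 and -0.003) and VEGF medians (-0.015 and 0.057) lay above it, and Wnt medians (-0.089 and -0.050) below it. The identity and transporter medians stayed positive under both. Both libraries with Baf53b siRNA lay above both controls for 7 of 12 identity genes and 6 of 12 transporters, beside 16.7% of all genes. They did so for 4 of 13 junction, 3 of 12 Wnt and 3 of 10 VEGF genes. Below both controls lay 2 Wnt genes and 1 VEGF gene, beside 7.11%. At an unadjusted limma p under 0.05, 3 identity, 3 transporter, 2 Wnt and 1 junction genes were higher, beside 4.75%. Identity differences ran from -0.05 to 0.90. The most abundant junction genes, the catenin Ctnnb1 and the scaffold Tjp1, differed from control by -0.06 and 0.07, the amino acid transporter subunit Slc3a2 and the transferrin receptor Tfrc by 0.06 and 0.17, and the identity genes Itm2a and Egfl7 by 0.20 and 0.11. The Wnt coreceptor Lrp6 and the Wnt target Apcdd1 differed by -0.04 and 0.48, and the growth factors Vegfb and Vegfa by -0.04 and 0.03. F11r and Slc38a5, named after their values were seen, came closest to passing. The junctional adhesion gene F11r was at 2.17 and 1.69, 3.94 and 4.03, and 6.74 and 4.32 FPKM over control, scrambled siRNA and Baf53b siRNA (difference 1.14, limma adjusted p = 0.0757). The glutamine transporter gene Slc38a5 was at 1.31 and 0.967, 2.93 and 2.91, and 3.20 and 2.55 FPKM (difference 0.86, limma adjusted p = 0.102), so its level was already reached in scrambled siRNA, as for Ly6c1.

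Some genes around Icam1 and Vcam1 in the adhesion pathway passed the test. Of 10 tested genes of cytokine input to adhesion genes 4 rose against control and none fell, beside 1.23% and 0% of all genes (median 0.65), among them the transcription factor Irf1 (1.03) and the tumour necrosis factor receptors Tnfrsf1b (1.34) and Tnfrsf1a (1.07), with limma adjusted p from 0.0188 to 0.0373. Irf1 showed no step between control (3.596 and 3.457 FPKM) and scrambled siRNA (3.54 and 3.77), and stood at 8.80 and 7.69 FPKM with Baf53b siRNA. Of 4 tested genes for integrins that bind Icam1 or Vcam1, 2 rose against control, beside 1.23% of all genes: Itgb2 by 1.64 (limma adjusted p = 0.0304) and its partner Itgam by 1.06 (limma adjusted p = 0.0374). Itgb2 was at 1.78 and 1.68 FPKM in controls, 3.64 and 3.93 with scrambled siRNA, and 10.03 and 5.54 with Baf53b siRNA. Itgb1 and Itga4, the Vcam1-binding pair, differed by 0.29 and 0.11 and did not pass.

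The list of endothelial activation and leak genes had a median near that of all genes. Of 14 genes 7 were tested, and 1 rose, the chemokine gene Cxcl10, which many cell types make in response to interferon. Cxcl10 was listed at 0 in both control libraries, at 0.138 and 0.186 FPKM in scrambled siRNA and at 4.94 and 1.78 FPKM with Baf53b siRNA (limma adjusted p = 0.0443 against control). Like Icam1, it passed the filter on low values through the group in which it was high, and its call was lost in 9 of 12 alternative settings, including 4 of 5 that dropped 1 library, and without Baf53b siRNA replicate 1 it was not tested. The most abundant members, Ackr1 and Cav1, named after their values were seen, differed by 0.14 and 0.05. The list's median of 0.05 was negative under both other scalings (-0.029 and -0.022), as was that of all genes (-0.035 and -0.033). No gene of these lists passed against scrambled siRNA or between scrambled siRNA and control. As with Icam1, the calls of the genes named here were lost with some library left out: for Irf1, Tnfrsf1a and Itgam with any of the 6, for Itgb2 with any but Baf53b siRNA replicate 2, for Tnfrsf1b without either control or either Baf53b siRNA library, and for Cxcl10 with any of the 5 libraries in whose absence it was tested except Baf53b siRNA replicate 2. The highest adjusted p among them was 0.329.

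Some markers of other cell types moved in the same libraries. The summed FPKM of 7 microglia markers was 209 to 216 in control, 322 to 324 in scrambled siRNA and 441 to 533 with Baf53b siRNA, and 4 of the 7 rose against control, beside 1.23% of all genes (among them C1qa, Aif1 and Cx3cr1, by 2.05, 1.66 and 0.92). The 13 leukocyte markers summed to 4.30 to 4.59, 9.98 to 10.9 and 18.8 to 24.0 FPKM. Only 3 were tested, and 2 rose against control, beside 1.23% of all genes: Ptprc by 1.67 and Plac8 by 1.64. Plac8 passed the filter on low values through its 2.60 and 2.83 FPKM with Baf53b siRNA, since the other 4 libraries were at 0.571 FPKM or less. The T cell genes Cd3e and Cd3g, the lymphocyte gene Nkg7 and the neutrophil gene S100a9 were at 0 in both controls. No leukocyte marker was at 0 with Baf53b siRNA, and in scrambled siRNA replicates 1 and 2 only 1 and 0 were. With Baf53b siRNA 8 and 7 of the 13 were still under 1 FPKM. S100a9 (0.628 and 1.02 FPKM) and Cd3e (0.673 and 0.332) there overlapped scrambled siRNA (0.583 and 1.38, and 0.480 and 0.246). The 5 astrocyte markers summed to 278 to 315, 325 to 330 and 498 to 519 FPKM. Of these, 2 rose against control, beside 1.23% of all genes: Gfap by 3.23 and Aqp4 by 0.80. Much of the sum's rise was Gfap, at 16.9 and 18.3, 45.1 and 47.3, and 170 and 178 FPKM. Aldh1l1, Gja1 and Slc1a3 differed by 0.05, 0.07 and 0.28, did not pass, and overlapped between control and scrambled siRNA. The sums of these lists stood in the same order of groups as Icam1, Vcam1 and Ly6a, and their part in those results was not tested.

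No tested marker of pericytes and smooth muscle, fibroblasts, neurons or red blood cells passed. The 8 pericyte and smooth muscle markers summed to between 21.3 and 34.7 FPKM with overlap of all groups, and none of 4 tested passed (median 0.12 against control). Among fibroblast markers 0 of 2 tested passed (0.13), among neuron markers 0 of 5 (-0.04) and among red blood cell markers 0 of 4 (-0.21). The tested fibroblast markers were Dcn and Pdgfra, while Col1a1, Col1a2, Col3a1 and Lum were under 1 FPKM in every library and not tested.

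**Figure D4:**
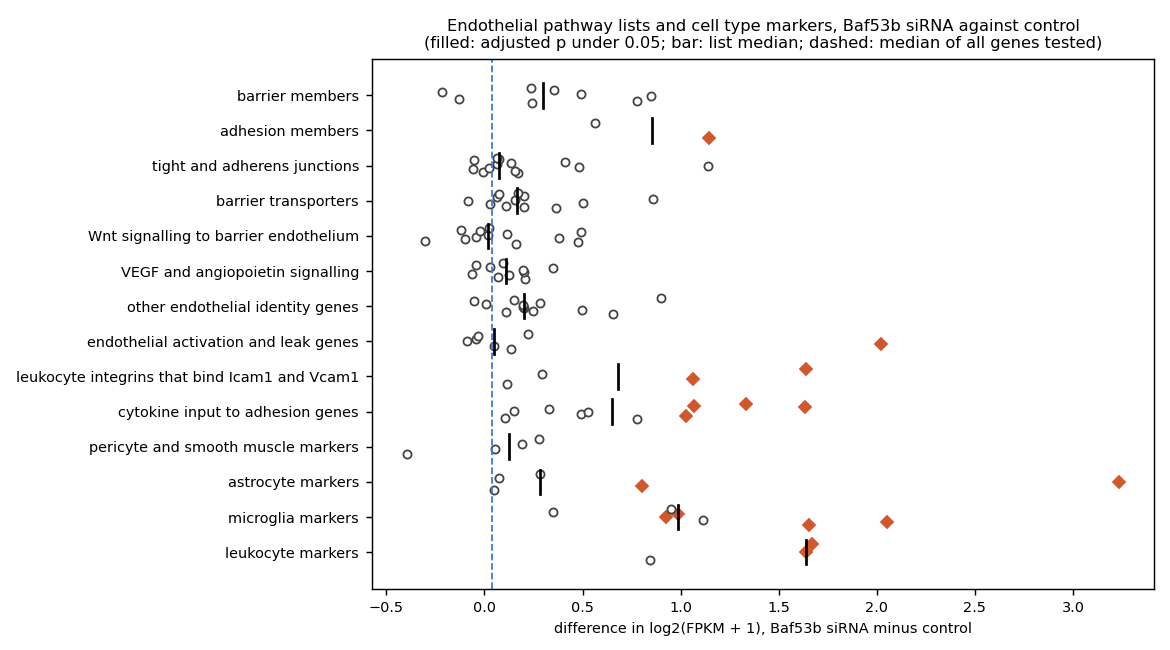
Differences in log2(FPKM + 1) between Baf53b siRNA and control for each tested gene of the endothelial pathway and cell type lists; bars are list medians, the dashed line is the median of all genes tested (0.04), and filled marks have an adjusted p under 0.05. The junction, transporter, Wnt, VEGF and identity lists hold no filled mark, and the cytokine input list holds 4; Cxcl10, in the activation list, was at 0 in both controls.

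The genes whose profiles over the 6 libraries were closest to Icam1 were Lgals9, Grn, Arhgap45 and Tnfrsf1a. Likeness was measured among all genes tested as the root mean square distance of log2(FPKM + 1) after centring each gene, and these 4 lay within 0.0372 to 0.0581 of Icam1, whose own SD was 0.48. Lgals9 was at 3.33 and 2.52 FPKM in controls, 5.46 and 4.38 with scrambled siRNA, and 8.56 and 7.10 with Baf53b siRNA. The closest to Vcam1 were Tifab, Apbb1ip, Gm26809, Fli1 and Cyr61 (0.0336 to 0.0429, own SD 0.24). Fli1 passed the filter on low values through its 1.52 and 1.49 FPKM with Baf53b siRNA, since its other libraries were at 0.767 to 0.998 FPKM. Tifab was at 0.775 and 0.995, 1.10 and 1.23, and 1.83 and 1.87 FPKM in the same order. The closest to Cldn5 lay farther off, at 0.126 to 0.186 with an own SD of 0.52, and were Gm12216, Spaca6, Tatdn3, Thbs3 and Gm20605. Spaca6 was at 18.3 and 8.29, 18.7 and 13.4, and 15.4 and 24.98 FPKM, with the same low value in control replicate 2 and high value in Baf53b siRNA replicate 2 as Cldn5. None of the 5 closest genes of Icam1, Vcam1 or Cldn5 was another of the 10 genes.

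**Figure D5:**
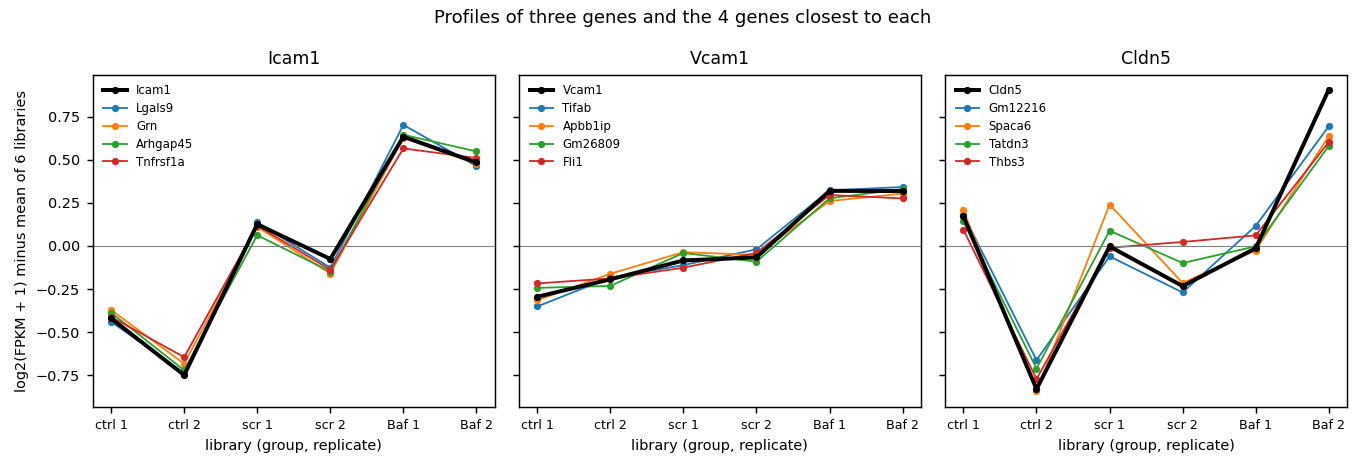
Profiles of Icam1, Vcam1 and Cldn5 (black) with the 4 closest genes of each, as log2(FPKM + 1) minus the gene's mean over the 6 libraries; lines join libraries only to guide the eye. The Icam1 and Vcam1 panels step up by group, and the Cldn5 panel swings with replicate 2 of control and of Baf53b siRNA.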

How the data were processed

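RNA-seq of lateral amygdala was read in 6 libraries, 2 per group, grouped by their titles. The submitters' processing notes name Cufflinks 2.2.1, TopHat2 2.1.1, bcl2fastq 2.19.1.403 and mm10. Annotation release, settings and strand use were not given in the sources used here. Each deposited table gives the authors' FPKM of every gene and its confidence bounds. This unit is relative to the library's fragments, so genes that take many lower the rest. Fragments behind a value were estimated from the bounds, taking a half-width as 2 SE and all of it as counting error. Such numbers are rough: Flt1 had 47.3 at 5.74 FPKM in control replicate 1 and 287 at 4.56 FPKM in control replicate 2. The bounds concern each library alone and not the spread between libraries.

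Rows of 48 gene IDs were summed, and 4 genes with a failed estimate and 354 small RNA genes were left out. The 14663 genes averaging 1 FPKM or more were fitted as log2(FPKM + 1) with limma 3.58.1 in R 4.3.3: group means over all 6 libraries, eBayes with trend, two-sided, Benjamini-Hochberg adjustment over all genes, call under 0.05. The fit was tested on simulated data. Genes, lists and tests were chosen with earlier results of these data known. From each list the called genes (up to 4) were named, or the 2 with the highest mean FPKM, and for Icam1, Vcam1 and Cldn5 the 5 closest genes; a few genes this rule names are not reported here. Alternatives changed the pseudocount, filter, scaling, fitted groups, replicate block, small RNA and each library. Gene types come from GENCODE M21 (50160 IDs matched).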

Additional observations from a re-analysis of the deposited data

Results flagged for a closer look

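Beside the genes, 92 rows of spike-in controls were listed that no label describes and no comparison used. Their summed FPKM was 117 and 125 in the control libraries. It was above that level in each siRNA library: 207 in scrambled siRNA replicate 1, 656 in scrambled siRNA replicate 2, 4820 in Baf53b siRNA replicate 1 and 811 in Baf53b siRNA replicate 2. The part of these rows in the levels of the barrier and adhesion genes was not tested.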

How the results depend on the processing

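The cause of these changes was not tested, except that fewer genes or libraries entered some fits. Against scrambled siRNA the count of called genes, 18, was 1 (pseudocount 0.1), 0 (no filter), 8 (minimum mean FPKM 5), 5 (small RNA kept) and 4 to 23 with a library left out; among these were 2 higher and 5 lower without scrambled siRNA replicate 1, and 4 higher and 5 lower without replicate 2. Against control the 181 became 42 without a filter, 71 with a minimum mean of 5 and 34 to 139 with a library left out. Between scrambled siRNA and control the 0 became 1 in a fit of these groups alone and 1 to 7 with a library left out (1 higher and 6 lower without control replicate 1). Of the 10 genes, 1 passed against control. This became 0 with a pseudocount of 0.1, no filter, a mean of at least 5 (where Icam1 was not tested), the compared groups alone, small RNA kept or any library left out. It became 2, Icam1 and Ly6a, with FPKM rescaled without mitochondrial genes. With quantile normalization Ly6a passed and Icam1 did not (adjusted p = 0.113). None of the 10 passed in the other comparisons under any setting. With 1 library left in a group, that library is assumed to vary like the other groups.

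With a pseudocount of 0.1 the adhesion minus barrier contrast differed by 0.43, 1.02 and 0.59 (Baf53b siRNA against scrambled siRNA and control, and scrambled siRNA against control), and with a library left out by 0.16 to 0.44, 0.39 to 0.67 and 0.18 to 0.28. Signs turned in 17 cases, all with a library left out and none of them called. Against scrambled siRNA the left-out ranges were -0.33 to 0.22 for Mfsd2a, -0.22 to 0.11 for Slco1a4, -0.23 to 0.12 for Flt1 and -0.0337 to 0.64 for Cdh5. Against control they were -0.30 to 0.0405 for Flt1, -0.49 to 0.0568 for Mfsd2a and -0.0918 to 0.58 for Cdh5. Between scrambled siRNA and control they were -0.21 to 0.0645 for Flt1, -0.19 to 0.0762 for Cdh5, -0.29 to 0.71 for Cldn5, -0.0658 to 0.23 for Pecam1 and -0.36 to 0.0314 for Mfsd2a.

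The labels do not say what libraries of the same replicate number share. Deviations of replicate 1 correlated across genes at 0.39, 0.18 and 0.36 between the 3 pairs of groups. With the replicate block 13, 188 and 0 genes were called, and 2 of the 10 genes passed against control, Icam1 (adjusted p = 0.0431) and Ly6a (0.0201). The Cxcl10 call was lost under it (0.0681). The lowest fragment numbers estimated from the bounds were 14.8 for Icam1, 36.4 for Flt1 and 39.0 for Cdh5.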
